A study of Sus scrofa with 2 samples.

Results

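The genes described here encode the protein subunits of the mitochondrial ribosome. They were chosen by symbol, as every gene whose symbol is MRPL or MRPS followed by a number, and 75 of the 28155 genes in the files matched. Of these, 49 belong to the large and 25 to the small subunit. The remaining gene, MRPS36, keeps a ribosomal name but encodes a subunit of the 2-oxoglutarate dehydrogenase complex. All 75 were counted in both libraries.

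The series holds single-cell RNA sequencing of porcine adipose-derived stem cells (ADSCs), stromal cells that grow out of fat tissue in culture. The labels give 1 group, healthy Bama miniature pigs, with no treatment and no second genotype. Chest fat was the source of the cells, which were grown for 3 generations and then frozen, and 2 libraries numbered 1 and 2 were made with Chromium 3′ v3.1 chemistry. Whether the libraries are separate animals or cultures is not stated in the labels. Every p-value below sets a difference between classes of cells against how far that difference varies between these libraries, pooled over genes. That spread may be only technical.

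Mitochondria carry their own ribosomes, which translate the few proteins encoded by mitochondrial DNA, all of them parts of the respiratory chain and ATP synthase. The ribosomal RNA of these particles is transcribed inside the mitochondrion, whereas every protein subunit is encoded in the nucleus, made in the cytosol and imported. Some subunits have a counterpart in the bacterial ribosome, and others occur only in mitochondria. Among the 74 subunit genes counted, 44 are of the first kind and 30 of the second. Growing cells renew their mitochondria as they divide, and the mitochondrial ribosome is part of what is renewed.

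Barcodes with at least 1000 genes were taken as cells, 10559 of 12251 in library 1 and 11984 of 12956 in library 2, with medians of 19845 and 19651.5 unique molecular identifiers (UMIs, each a counted RNA molecule) per cell. The libraries shared 46 barcodes. Levels are counts per 1000000 UMIs of the same library or class of cells (CPM). This chemistry counts molecule ends, so CPM is not divided by gene length. Where a pair of values is given, library 1 comes first. The 10 stromal markers summed to 5173 and 6555 CPM, with 9 of 10 at 10 CPM or more in both libraries. Of the endothelial markers PECAM1 alone passed 10 CPM, and the other 4 were below 1 CPM. All 5 fat cell and all 5 epithelial markers were below 1 CPM in both libraries, and the highest immune marker was CSF1R in library 1, at 2.69 CPM, and CD68 in library 2, at 0.583 CPM.

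Together the 75 genes supplied 6956 CPM in library 1 and 6853 CPM in library 2, or 0.696% and 0.685% of all UMIs. The large subunit genes summed to 4879 and 4809 CPM and the small subunit genes to 2022 and 1992 CPM. For scale, 79 genes of the cytosolic ribosome summed to 258829 and 261467 CPM, and 49 nuclear genes of the respiratory chain to 9741 and 9354 CPM. The median member stood at 71.7 CPM in each library, and 66 of the 75 lay between 20 and 200 CPM in both. Genes for subunits of the same particle were thus counted at levels several-fold apart.

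By mean CPM, the highest member was MRPL57, a mitochondria-specific protein of the large subunit, with 362.6 CPM in library 1 and 354.7 CPM in library 2. MRPL17, counterpart of a bacterial large subunit protein, followed with 302.7 and 285.8 CPM. MRPL23 (283.3 and 286.3 CPM), which in bacteria lines the exit of the peptide tunnel, MRPL28 (267.3 and 259.9 CPM) and MRPL20 (262.1 and 268.7 CPM) came next. The order below MRPL57 is not the same in both libraries: MRPL23 stood just above MRPL17 in library 2, and MRPL20 above MRPL28. The ranks from 6 to 10 were held by MRPS26 (209.0 and 208.8 CPM), the highest small subunit gene, then MRPL14, MRPL40, MRPS7 and MRPL55 between 155.1 and 190.1 CPM. These 10 genes carried 33.8% and 34.5% of all member UMIs.

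At the low end, MRPL53 was nearly absent, with 59 UMIs or 0.281 CPM (exact 95% Poisson interval 0.214 to 0.363) in library 1 and 91 UMIs or 0.371 CPM (0.299 to 0.455) in library 2. Such intervals cover counting error only. It was the only member below 10 CPM. The gene lies on chromosome 3 from 68570198 to 68573584 (RefSeq, Sscrofa11.1) and its span overlaps those of TTC31 and CCDC142, which stood at 7.62 and 0.248 CPM in library 1. The sources used here do not say how the counting treated overlapping genes or strand, so a low count there may not be a low level. The next lowest were MRPL47 at 15.6 and 12.6 CPM, MRPL54 at 23.9 and 19.8 CPM, MRPS22 at 22.8 and 21.5 CPM and MRPS5 at 23.3 and 27.1 CPM. MRPS18B, MRPL44, MRPL49, MRPL50 and MRPS27 followed, all between 23.6 and 31.7 CPM.

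**Figure D1:**
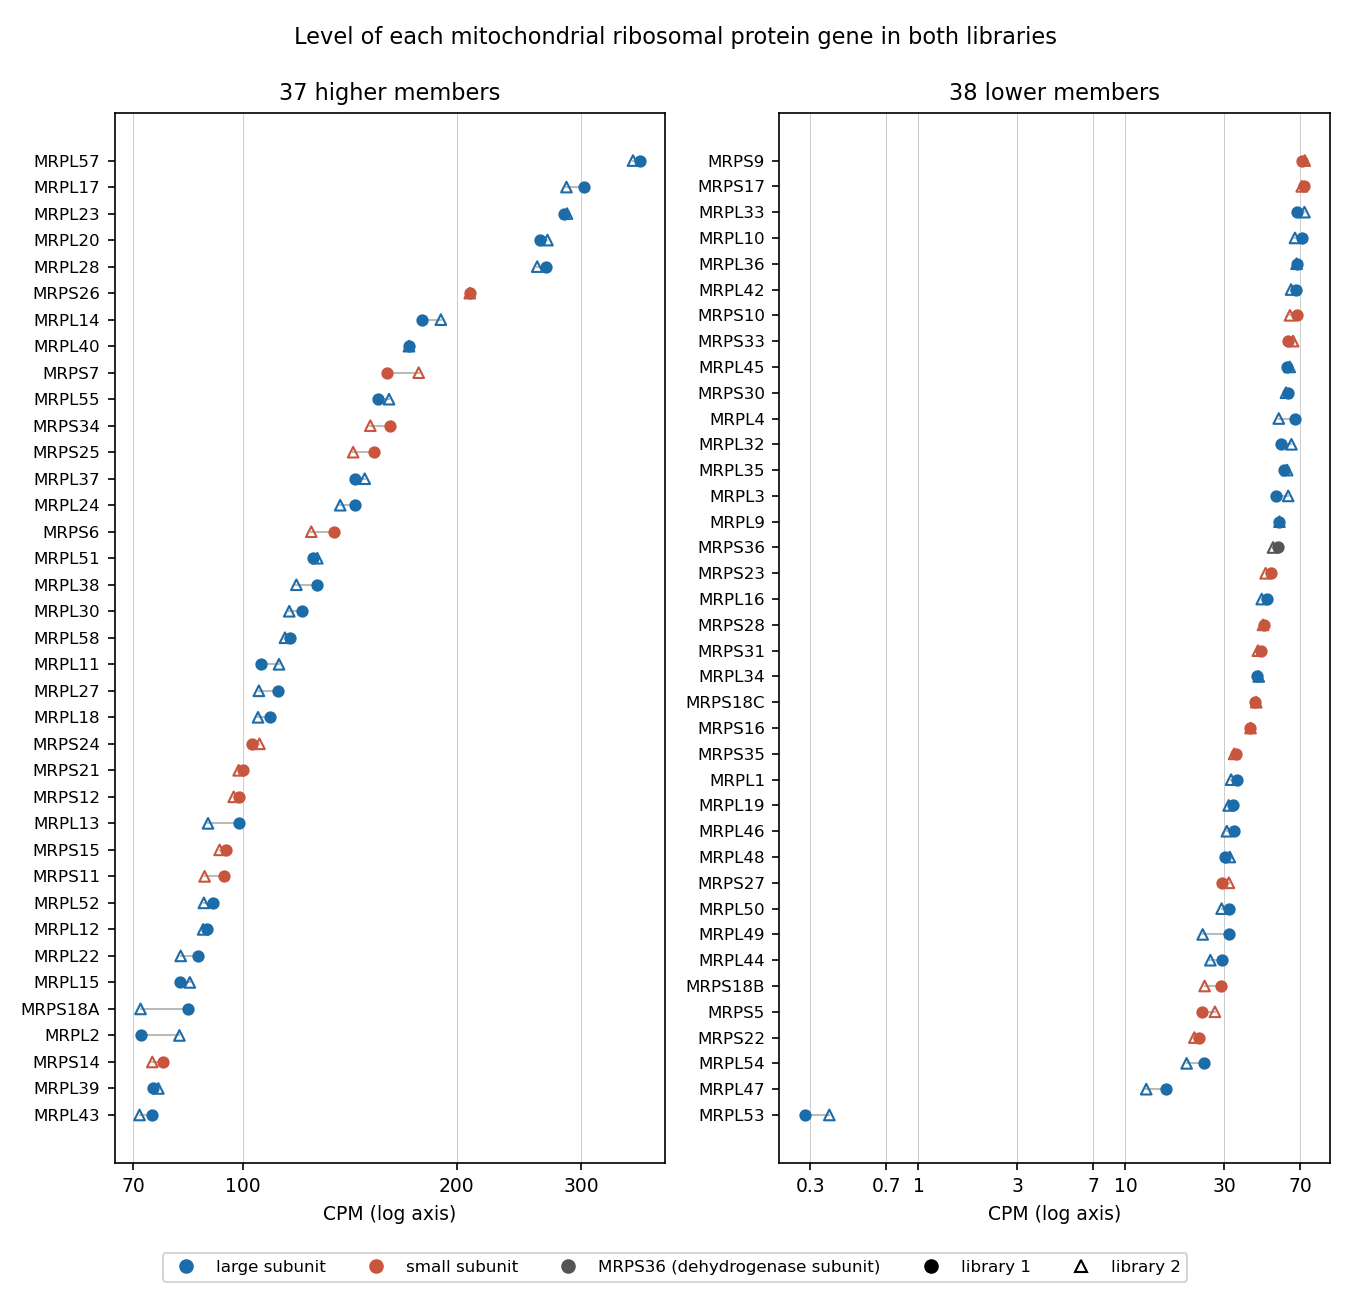
CPM (log axes, with different ranges in the panels) of each of the 75 genes in library 1 (filled circles) and library 2 (open triangles), ordered by the mean of both libraries and coloured by ribosomal subunit. Most genes lie between 20 and 200 CPM, the 5 highest are all large subunit genes, and MRPL53 stands alone at 0.281 and 0.371 CPM.

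The genes are scattered over the genome. By RefSeq coordinates on Sscrofa11.1, to which all 75 were matched by symbol, they lie on 17 chromosomes, with 10 on chromosome 3 and 8 each on chromosomes 2 and 12. Their median span was 9331 bases, against 19160 bases for 20663 protein-coding genes. The spans of 25 members overlap that of another gene.

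Both libraries gave nearly the same level for each member. With 1 library on each side no test was possible. Among the 74 members with a mean of at least 10 CPM, the log2 ratio of library 1 to library 2 ran from -0.21 to 0.42 with a median of 0.03. None of them passed 2-fold, against 3.16% of the 8042 genes at that level. MRPL49, with 31.7 CPM in library 1 and 23.6 CPM in library 2, differed most (log2 0.42), and its span overlaps SYVN1 and FAU. MRPL47 (0.31) and MRPL54 (0.28) were the next higher in library 1. The largest differences the other way were in MRPS5 (-0.21), MRPL3 (-0.19) and MRPL2 (-0.18), counterparts of bacterial proteins.

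Relation to the cell cycle was examined by splitting cells within each library. Cells with at least 5000 UMIs, 9581 in library 1 and 11598 in library 2, were thinned to 5000 UMIs, and shallower cells were left out. A thinned cell was called cycling when 3 or more of 15 core cycle genes had UMIs and non-cycling when none had. Cells between these limits were in neither class. The rule gave 3830 cycling and 1936 non-cycling cells in library 1, and 4611 and 2552 in library 2. Full counts were then summed per library and class and tested with edgeR. A call required an adjusted p under 0.05 over all genes tested, a log2 difference of 0.5 or more in size and one direction in the 2 libraries.

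The members as a whole were somewhat higher in cycling cells. In library 1 cycling cells held 7488 summed CPM and non-cycling cells 6402, and in library 2 the values were 7398 and 6280 CPM. The classes did not overlap. The large subunit genes stood at 5183 and 5122 CPM in cycling and 4559 and 4470 CPM in the non-cycling cells, and the small subunit genes at 2244 and 2217 CPM against 1795 and 1766 CPM. MRPS25, MRPS6 and MRPS12, described below, are part of the small subunit sums and had the largest log2 differences. Sums without them were not made, so the small subunit difference is not one shared evenly by its genes.

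Most single genes moved little. The median log2 difference over the 75 members was 0.18, against -0.01 over all 17036 genes tested, and 60 members were above 0 in both libraries and 8 below 0 in both. Only 3 members were called higher and 0 lower, against 8.21% of all genes called higher and 9.34% called lower. Without the fold minimum 45 members were higher (21.7% of all genes) and 1 was lower (22.3%). So small differences were common among the members and large ones were not. The members are well counted, with 74 of 75 at a mean of at least 10 CPM, a level reached by 8042 genes. Small differences are easier to call in such genes, and the share among genes of like level is not given here.

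The 3 called genes all belong to the small subunit. MRPS25, a mitochondria-specific protein, stood at 212.7 and 204.8 CPM in cycling cells and at 90.6 and 82.2 CPM in the non-cycling cells of libraries 1 and 2. Its cycling values were more than 2-fold the non-cycling ones in both libraries, with a log2 difference of 1.22 ± 0.05 (SE; edgeR adjusted p = 1.92e-12). MRPS6, the counterpart of bacterial S6, stood at 178.2 and 166.7 CPM in cycling and 94.6 and 86.6 CPM in the non-cycling cells. Its log2 difference was 0.87 ± 0.05 (SE; edgeR adjusted p = 1.52e-10). MRPS12, the counterpart of the bacterial S12 protein at the decoding centre, stood at 122.1 and 120.1 CPM against 74.9 and 75.4 CPM. Its log2 difference was 0.63 ± 0.05 (SE; edgeR adjusted p = 1.70e-08), and that call was lost without the library term. In none of the 3 did the classes overlap, which the call itself makes nearly certain with libraries this alike.

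The 3 genes lie at separate places in the genome. MRPS25 spans 69441100 to 69465912 and MRPS6 spans 197687906 to 197756773 on chromosome 13, and MRPS12 spans 47728518 to 47732042 on chromosome 6. MRPS25 overlaps NR2C2, a nuclear receptor at 12.7 and 16.2 CPM, whose own log2 difference was 0.16 ± 0.07 (SE). MRPS6 overlaps SLC5A3, an inositol transporter at 12.2 CPM in library 1, with 0.39 ± 0.15 (SE). SARS2, the mitochondrial seryl-tRNA synthetase near MRPS12, gave 0.20 ± 0.08 (SE). None of these neighbours was called, and all were counted at a small fraction of the member's level. Elsewhere, 6 genes that overlap a member were called where the member was not. Of these 4 were higher: EME1 (3.39, overlapping MRPL27), SKA3 (1.48, overlapping MRPL57), ACTL6A (0.94, overlapping MRPL47) and TWNK (0.89, overlapping MRPL43), which encodes the mitochondrial DNA helicase. The other 2, KLC4 (-0.61, overlapping MRPL2) and TMEM8A (-0.56, overlapping MRPL28), were lower. Over all genes 8.21% were called higher and 9.34% lower, so these calls are not a result about the neighbours of members.

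Just under the fold minimum were MRPL39 (log2 0.49 ± 0.05), MRPL54 (0.48 ± 0.06) and MRPS30 (0.44 ± 0.05), a protein that despite its name sits in the large subunit. MRPS36, the dehydrogenase subunit, stood at 61.5 and 59.8 CPM in cycling and 48.3 and 44.0 CPM in the non-cycling cells (log2 0.34 ± 0.05). The MRPS18 paralogs differed from one another in value. MRPS18C, the bacterial S18 counterpart, gave 0.28 ± 0.05, MRPS18A, which sits in the large subunit, 0.10 ± 0.05 and MRPS18B -0.01 ± 0.06. The sign for MRPS18B depends on the scaling, since its CPM was 29.4 and 24.19 in cycling and 27.7 and 24.12 in the non-cycling cells. At the other end was MRPL15, with 77.7 and 80.1 CPM in cycling and 84.8 and 87.4 CPM in the non-cycling cells (log2 -0.18 ± 0.05). MRPL57, the highest member, stood at 365.9 and 357.3 CPM in cycling and 360.8 and 345.0 CPM in the non-cycling cells, higher by CPM in both libraries, while its log2 difference with TMM scaling was -0.02. With library size alone 71 of 75 members were above 0 in the fit, against 63 with TMM, and the median of all genes was 0.05.

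**Figure D2:**
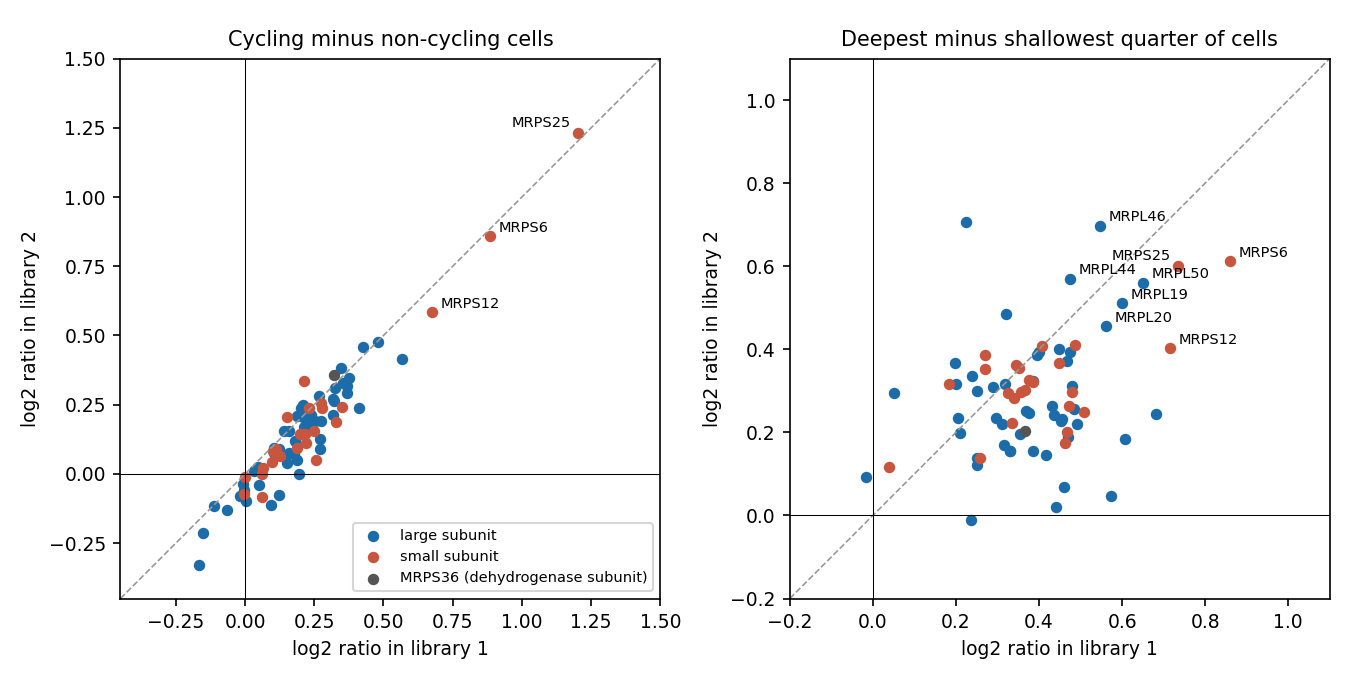
Log2 ratio of each of the 75 members in library 1 (horizontal) and library 2 (vertical), for cycling against non-cycling cells on the left and the 25% of cells with the most UMIs against the 25% with the fewest on the right, with TMM scaling. Points on the dashed line have the same ratio in both libraries, and names mark called members. On the left MRPS25, MRPS6 and MRPS12 stand away from the other genes in both libraries, and on the right nearly all points lie above 0 (all 75 fitted values, or 72 of 75 with library size alone).

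Other mitochondrial genes from lists of the same pathway gave similar small medians. The 5 subunit genes with other symbols had a median log2 difference of 0.12 and 0 calls: PTCD3 0.40, CHCHD1 0.24, AURKAIP1 0.12, GADD45GIP1 0.01 and DAP3 -0.01. Of 18 assembly factors 1 was higher, TFB1M (0.82), the methyltransferase of the small ribosomal RNA. Of 14 translation factors 0 were called. AARS2 (1.60), the mitochondrial alanyl-tRNA synthetase, was among the synthetase genes called higher. TFAM (0.59), which packages mitochondrial DNA, was the only one of 5 transcription genes called. The import list had 2 of 19 higher, TIMM21 (0.73) and TOMM40 (0.52), with a median of 0.22.

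Among groups outside this pathway, the median of the cytosolic ribosome lay on the other side of 0. The 77 cytosolic ribosomal protein genes tested had a median log2 difference of -0.17 with 0 calls, and their sum was 250881 and 251346 CPM in cycling and 270805 and 274685 CPM in the non-cycling cells. The respiratory chain genes had a median of 0.05, with 1 of 49 called, NDUFA4L2 (-0.92). The 38 proteasome genes had a median of 0.20, close to that of the members, with PSMD14 (0.54) called higher. The 2 mitochondrial ribosomal RNA genes stood at -0.28 and -0.21 and were not called. Differences between these lists were not tested. Of 9 regulators of growth and mitochondrial gene transcription, NRF1, a transcription factor of nuclear mitochondrial genes, was higher (0.73), and MYC stood at -0.49. The stromal markers DCN (-0.73) and COL3A1 (-0.66) were lower in cycling cells, and whether cell state other than the cycle moves the members was not tested.

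The class itself sets limits. All 15 core genes were higher by construction, and non-cycling cells still held 160.6 and 139.8 CPM of core genes in full counts, against 2661 and 2844 CPM in cycling cells, and the part of free RNA in this was not tested. With the class set on full counts rather than thinned cells, 10 members were called higher. The share called among the 17405 genes tested there is not given here, so this count is not a result about the members. In that setting the median depth was 7984 and 10911 UMIs in non-cycling and 22697 and 21793.5 UMIs in cycling cells.

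Cells were next divided by the stage of the genes they held. In thinned cells, at most 1 gene was taken as low and at least 3 as high, for the 15 core genes, which peak late in the cycle, and for 14 S phase genes. Cells low for both lists numbered 3150 and 4122, high for S phase genes only 438 and 517, high for core genes only 1047 and 1398, and high for both 1868 and 2136. The 3 comparisons use the same low cells and are given side by side.

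The summed members were lowest in the low cells, at 6356 and 6238 CPM, and highest in cells with both gene sets, at 7668 and 7556 CPM. Cells high for S phase genes only, called S phase cells here, gave 7143 and 7047 CPM. Cells high for core genes only, called late cells, gave 7250 and 7168 CPM. The S phase genes themselves summed to 1013 and 997 CPM in cells with both sets, above the 709 and 755 CPM in S phase cells. In S phase cells 2 members were called higher and 0 lower (4.92% and 2.64% of all genes), with a median of 0.12. In late cells 4 were higher and 0 lower (6.1% and 6.8%), with a median of 0.15. In cells with both sets 5 were higher and 0 lower (10.5% and 10.9%), with a median of 0.21.

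MRPS25 followed the same order in both libraries. It stood at 88.0 and 78.0 CPM in low cells, 143.1 and 150.9 CPM in S phase cells, 191.9 and 181.8 CPM in late cells and 226.4 and 219.3 CPM in cells with both. The log2 differences from low cells were 0.79 ± 0.05, 1.13 ± 0.05 and 1.37 ± 0.05 (SE). MRPS6 stood at 90.9 and 84.4, 133.0 and 123.5, 153.1 and 142.8, and 193.2 and 181.2 CPM in the same order, and was called in all 3 (log2 0.50, 0.72 and 1.03). In library 2 alone its S phase value was 0.48, under the fold minimum. MRPS12 stood at 75.4 and 74.2, 94.5 and 92.8, 117.0 and 113.5, and 126.4 and 123.1 CPM. It was called in late cells (0.58) and in cells with both sets (0.68), and its S phase value was 0.28. For each of these genes no class overlapped its neighbour in the order. The genes were picked by their calls on the same cells, which makes this likely with libraries this alike. The share of all genes without such overlap is not given here.

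Of the other members, MRPL54 was called in late cells (log2 0.51) and in cells with both sets (0.52), in both cases close to the minimum and not without the library term. Its levels were 19.7 and 15.5 CPM in low cells and 27.8 and 24.5 CPM in cells with both. MRPS30 was called in cells with both sets (0.57), where it stood at 74.9 and 76.7 CPM against 49.6 and 48.2 CPM in low cells. MRPL57 stood at 358.4 and 344.8 CPM in low cells and 372.5 and 360.2 CPM in cells with both, a ratio far smaller than in the genes above.

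**Figure D3:**
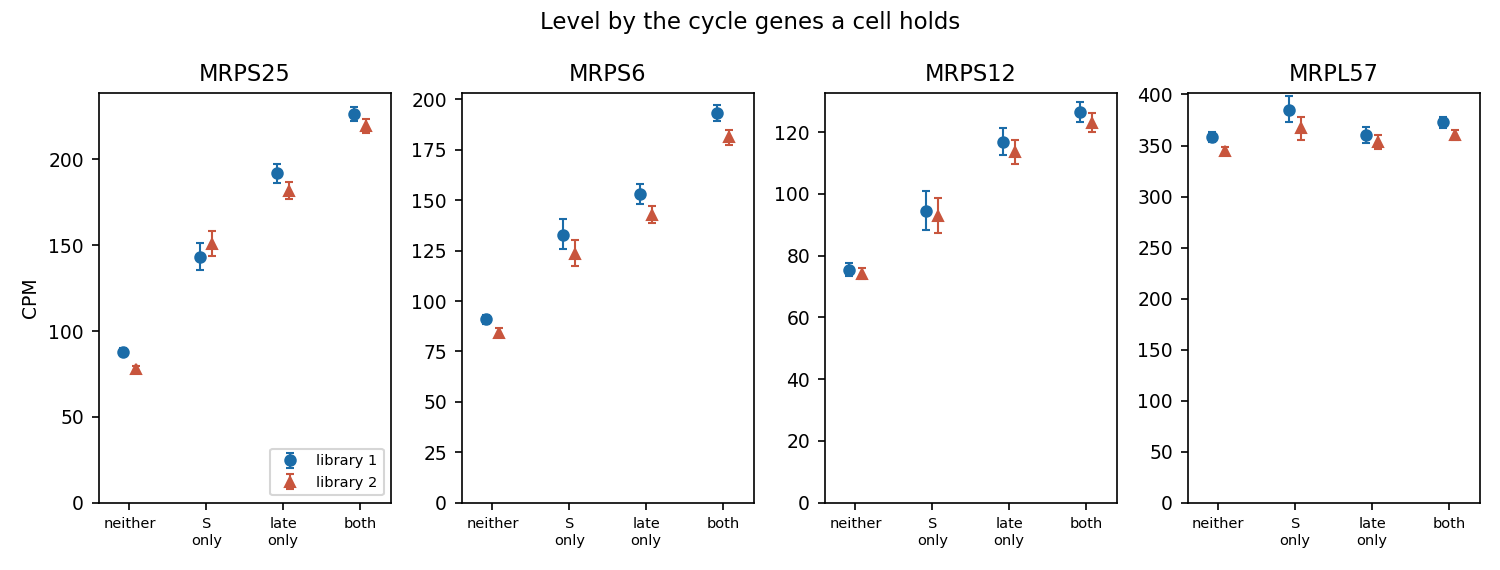
CPM of MRPS25, MRPS6, MRPS12 and MRPL57 in cells low for both cycle gene lists (neither), high for S phase genes only, high for late core genes only and high for both, in library 1 (circles) and library 2 (triangles). Bars are exact 95% Poisson intervals and cover counting error only. MRPS25 goes from 88.0 and 78.0 CPM in the lowest class to 226.4 and 219.3 CPM in the highest, while MRPL57 stays between 344.8 and 385.2 CPM.

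Relation to depth was examined by ordering the cells of each library by their UMIs. When cells were cut into 10 groups of equal number, the summed members stood at 5452 CPM in the shallowest group of library 1 (median 2618.5 UMIs) and 7376 CPM in the deepest (median 39190 UMIs). In library 2 the same groups gave 6145 and 7307 CPM (medians 6698 and 39575 UMIs). Most of this gap lay at the ends. From the third to the eighth group the sum ran only from 6655 to 6981 CPM in library 1 and from 6531 to 6837 CPM in library 2.

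Mitochondrial ribosomal RNA moved the opposite way and much further. Its 2 genes summed to 8400 CPM in the shallowest and 793 CPM in the deepest group of library 1, and to 4159 and 567 CPM in library 2. A high share of mitochondrial RNA is widely used as a sign of damaged cells, and its part in the members' low level in shallow cells was not tested. Cytosolic ribosomal proteins were also higher in deep cells, from 201707 to 258436 CPM in library 1 and from 237848 to 266460 CPM in library 2.

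**Figure D4:**
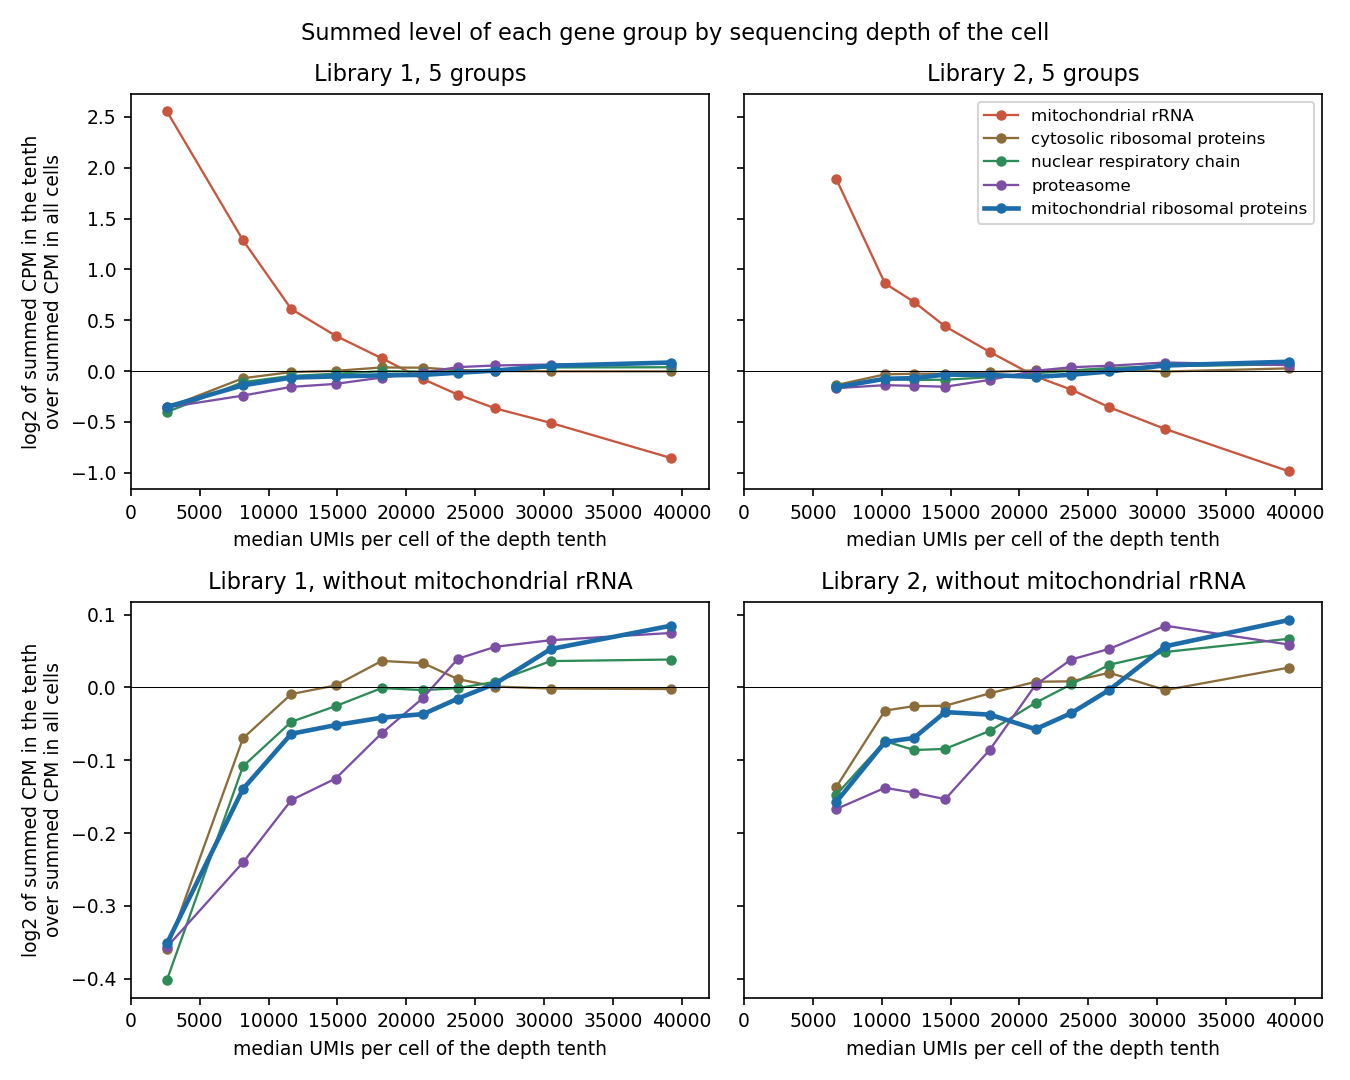
Log2 of the summed CPM of each gene group in 10 depth groups over its summed CPM in all cells, against the median UMIs per cell of the group, with all 5 groups above and without mitochondrial ribosomal RNA below. The members (thick blue line) lie below their mean in the shallowest cells (5452 CPM in library 1 and 6145 CPM in library 2) and above it in the deepest (7376 and 7307 CPM), while mitochondrial ribosomal RNA falls throughout.

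In the test of the 25% of cells with the most UMIs against the 25% with the fewest, 8 members were called higher and 0 lower, against 4.58% and 7.27% of the 16880 genes tested. The median log2 difference was 0.33 for the members and -0.05 for all genes, and all 75 members were above 0, from 0.08 to 0.74. Without the fold minimum 33 were higher (9.79% of all genes) and 0 lower (11.7%), again with no share given among genes of like level. With library size alone in place of TMM scaling, the median of all genes moved from -0.05 to -0.21, and 411 genes were higher and 2522 lower, against 773 and 1227 with TMM. The member median was then 0.18, still above that of all genes, with 72 of 75 members above 0 and 2 called.

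MRPS6 stood at 161.2 and 144.0 CPM in deep and 100.02 and 103.4 CPM in shallow cells (log2 0.74 ± 0.13 SE, edgeR adjusted p = 9.86e-07). MRPS25 stood at 178.1 and 165.2 CPM against 120.5 and 119.5 CPM (0.67 ± 0.13 SE, edgeR adjusted p = 9.19e-06). These 2 were the calls that also held with library size alone. MRPL46, a large subunit protein of the central protuberance, stood at 35.6 and 34.2 CPM against 27.4 and 23.2 CPM (0.62 ± 0.14 SE). The other 5 were MRPL50 (0.61), MRPS12 (0.56), MRPL19 (0.56), MRPL44 (0.52), a protein related to RNase III, and MRPL20 (0.51). In all 8 the deep and shallow values did not overlap, which the call itself makes nearly certain with libraries this alike. SLC5A3, which overlaps MRPS6, was called lower (-0.56), while EME1 (0.91), ACTL6A (0.68) and SKA3 (0.53), which overlap members not called here, were called higher. Over all genes 4.58% were called higher and 7.27% lower, so these too are values of single genes only.

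The depth calls rest on the library term and on a spread pooled over genes. Without that term edgeR called 0 of the 75 members and 0 of all genes, with 36 members and 1943 genes at an unadjusted p under 0.05, whereas DESeq2 with it called 8 members. With cells of at least 5000 UMIs alone 4 were called, and with the cells cut into 3 groups of equal number, the highest against the lowest, 3 were. For DESeq2 and for these choices of cells, the share called among all genes is not given here. Those counts show only how the calls move with the setting and are not a result about the members. The deep cells also held a higher level of core cycle genes, which summed to 1870 and 1888 CPM in deep and 821 and 772 CPM in shallow cells. Cycling cells were not counted in these groups.

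Other lists of nuclear genes also had medians above 0. The median was 0.41 for the proteasome (9 of 37 higher, with PSMB8 at 0.61), 0.47 for import (4 of 19, with TIMM8A at 0.61 and PMPCB at 0.60), 0.32 for the respiratory chain (3 of 49, with NDUFA9 at 0.64) and 0.23 for cytosolic ribosomal proteins (0 of 77). Of 18 assembly factors 4 were higher: FASTKD2 (0.60), GTPBP10 (0.58), C1QBP (0.56) and DDX28 (0.56). The 5 subunit genes with other symbols ran from -0.08 (PTCD3) to 0.26 (CHCHD1) with 0 calls. Both mitochondrial ribosomal RNA genes were lower, at -1.95 and -1.69. The members thus lay among the other lists of nuclear genes, and differences between lists were not tested.

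Cycle and depth were then crossed. Cycling and non-cycling cells were split at the median UMI count of the cells with at least 5000 UMIs in their library. Summed members stood at 7605 and 7506 CPM in deep cycling, 7152 and 7130 CPM in shallow cycling, 6493 and 6401 CPM in deep non-cycling and 6255 and 6029 CPM in shallow non-cycling cells. Shallow cycling cells were thus above deep non-cycling cells in both libraries.

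The cycling difference was present at both depths. In shallow cells MRPS25 (log2 1.17), MRPS6 (0.85) and MRPS12 (0.59) were called higher and 0 members lower, against 7.0% and 7.99% of 15611 genes. In deep cells MRPS25 (1.21), MRPS6 (0.85), MRPS12 (0.62) and MRPL54 (0.50) were higher and 0 lower, against 8.2% and 7.72%. Tested directly, the difference between deep and shallow cells was called for 0 members, against 0.416% of all genes. It was 0.05 ± 0.08 for MRPS25, 0.00 ± 0.09 for MRPS6 and 0.03 ± 0.08 for MRPS12 (SE). MRPL19 (-0.17), MRPS10 (-0.13) and MRPL32 (-0.11) had the lowest differences, and MRPL27 (0.17) and MRPL51 (0.16) the highest apart from MRPL53 (0.65 ± 0.74 SE), whose counts were too few to place it.

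Depth differences within a class were smaller than over all cells. Between deep and shallow cycling cells 0 members were called in either direction, against 0.237% of genes higher and 0.775% lower, and the member median was 0.17. Between deep and shallow non-cycling cells 0 were called, against 0.186% and 0.692%, with a median of 0.14. With TMM scaling all 75 members were above 0 in the first comparison and 73 in the second. With library size alone these counts were 66 and 63, the member medians 0.07 and 0.09, and the medians of all genes -0.10 and -0.08. The calls over all genes were then 17 higher and 237 lower in cycling and 20 and 228 in non-cycling cells, against 37 and 121 and against 29 and 108 with TMM. By CPM, MRPS36 was lower in deep than in shallow non-cycling cells in both libraries, at 47.8 and 43.1 against 49.2 and 45.8 CPM. MRPL54 and MRPS30 were also lower there in both libraries. The largest values were MRPL47 (0.41), MRPL46 (0.37) and MRPL50 (0.34) in cycling cells, and MRPL19 (0.45), MRPL46 (0.41) and MRPL47 (0.36) in non-cycling cells. MRPS25, called over all cells, stood at 0.26 and 0.21. These classes of cells with at least 5000 UMIs cover a narrower range of depth than the 25% at each end, and the difference between the designs was not tested.

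From cell to cell, at a fixed 5000 UMIs, a cell held 34.1 ± 8.0 member UMIs in library 1 (SD over 9581 cells) and 33.7 ± 7.6 in library 2 (SD over 11598 cells). Variance over mean was 1.86 and 1.72, above what independent counting alone gives. Cycling cells averaged 36.8 and 36.5 UMIs and non-cycling cells 31.6 and 30.9, with SDs between 7.14 and 7.84, so single cells of both classes overlapped widely.

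The large and small subunit sums were weakly correlated across cells, with Pearson's r of 0.29 and 0.26, and within non-cycling cells 0.26 and 0.22. At 10000 UMIs, over 8460 and 10312 cells, r was 0.40 and 0.38. Summed members correlated with respiratory chain genes at 0.36 and 0.30, with the proteasome at 0.35 and 0.30 and with import at 0.28 and 0.27. With cytosolic ribosomal proteins r was 0.14 and -0.03 over all cells, 0.19 and 0.15 in non-cycling and 0.22 and 0.05 in cycling cells, and at 10000 UMIs 0.01 and -0.13 over all cells. With mitochondrial ribosomal RNA it was -0.25 and -0.18, and at 10000 UMIs -0.10 and -0.12. These are descriptions over cells that share a library and a fixed total of UMIs.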

How the data were processed

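The data are 2 single-cell libraries of cultured porcine ADSCs. Counts of UMIs, deposited as whole numbers for each gene and barcode, come from Cell Ranger, version 7.0.0 per the file headers and 7.00 per the submitters' processing notes, which also name Sscrofa11.1. For the annotation, the strand setting and the step that called cells, nothing is stated in these sources.

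Barcodes with at least 1000 genes were kept, which held 209737159 and 245421850 UMIs. Classes were set on cells thinned at random to 5000 UMIs (9581 and 11598 cells), and full counts were summed per library and class. The sums were tested with the quasi-likelihood F test of edgeR 4.0.16 with TMM scaling, its filter on low counts, library as a term and Benjamini-Hochberg adjustment over all genes. One residual degree of freedom is left in the cycling and depth fits and 3 in the others, so the spread is largely pooled over genes. DESeq2 1.42.0 and other settings were tried as alternatives. No doublet caller was run; the 8% of cells with the most UMIs were left out as an alternative.

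Named members are the 10 highest and 10 lowest by mean CPM, up to 10 called per comparison, the 3 largest each way between libraries or where none was called, MRPS30, MRPS36 and the MRPS18 paralogs; of other lists, up to 4 called genes. MRPL39 and MRPL15 in the cycling comparison, and genes overlapping a member, were picked once their values were known. The members and lists were chosen with earlier results of these data known. The subunit symbols MRPL21, MRPS2 and MRPL41 are not analysed here. The design foresaw a search of promoter motifs, which was not run.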

Additional observations from a re-analysis of the deposited data

Results flagged for a closer look

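Barcodes with fewer than 1000 genes, which no comparison of the report uses, also held member UMIs. In these barcodes the 75 genes summed to 6575 CPM in library 1 and 5672 CPM in library 2. They are listed because the counts are not 0 there, which any set of expressed genes would meet, and there are no control samples to set beside them. Over the cells of the same libraries the sums were 6956 and 6853 CPM. Mitochondrial ribosomal RNA stood at 7191 and 41252 CPM in those barcodes, against 1431 and 1123 CPM in cells.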

How the results depend on the processing

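Under alternative settings 229 values of single members were followed, which is not every member in every setting. Of these, 200 kept their direction and call, 29 kept their direction and lost the call, and 0 reversed. The depth comparison holds 25 of the 29. Some members with cycling differences near 0, such as MRPS18B, did change sign with the scaling, so 0 reversed does not hold for all members. Counts of called members moved with the fold minimum. Without it, 45 were higher and 1 lower in cycling cells, 33 higher in deep cells, 28 in S phase cells, 40 in late cells, and 48 higher and 1 lower in cells with both gene sets. Within shallow cells 25 were higher between the cycling classes, and within deep cells 31 were higher and 1 lower. Between deep and shallow cells 18 were then higher within cycling and 7 within non-cycling cells. Of all genes, 21.7% were then higher and 22.3% lower in cycling cells, and 9.79% higher and 11.7% lower in deep cells. For the other comparisons and settings in this paragraph the share of all genes is not given beside the count. Those counts show only how the calls move with the setting. With library size alone the calls were 5 in cycling cells, 2 for depth, 8 in cells with both gene sets and 5 within shallow cells. Classes set on full counts gave 10. For depth, the fit without the library term (no replicate block) gave 0, cells cut into 3 groups of equal number 3, and cells with at least 5000 UMIs 4. Within cycling and non-cycling cells such groups gave 2 and 1. At 10000 UMIs r was 0.401 and 0.376 and variance over mean 2.44 and 2.27. The cause of these shifts was not tested beyond the settings' own construction. With 1 library left there is no test, and counts past the fold minimum are values only. S phase calls were 1 to 2 in this way, members lower in cells with both gene sets 0 to 1, those lower within shallow cells 0 to 1, and differences between depths 0 to 1 in each direction. Depth within cycling cells gave 0 to 3 higher and 0 to 1 lower, and within non-cycling cells 0 to 2 higher and 0 to 1 lower. Single cells at this depth hold too few member UMIs to compare single genes between cells. The alternatives for depth within classes, and several for stage and crossed classes, were chosen after seeing the data.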
